A study of Rattus norvegicus with 8 samples.

Results

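The contractile genes by which peritubular myoid cells are recognised were read in cultures labelled as rat Sertoli cells, across 4 treatments. The set holds 10 genes, Acta2, Myh11, Tagln, Cnn1, Des, Actg2, Myl9, Tpm1, Tpm2 and Cald1. A gene was represented by the row of a gene-level Affymetrix array table that carried its symbol and no other, and where several rows did so, by the one with the highest mean signal. Of the 10 genes, 9 had such a row, among 17582 genes with one in the table. Acta2 had none, and is described from a probe set that the annotation leaves without a symbol but describes as Acta2 mRNA.

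The cells were dispersed from rat testes, plated in DMEM/F12 medium with 10% fetal bovine serum, kept for 24 h and then treated for a further 24 h. The groups were NP at 0.1 µM, MBP at 0.1 mM, both compounds together at those doses (NP+MBP), and a solvent control. The labels do not spell out NP or MBP and give neither the age nor the strain of the rats, nor how many animals each culture came from. Each group was hybridised to 1 gene-level array and 1 miRNA array, 8 arrays in all, so a difference between 2 groups has no replicate behind it.

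Peritubular myoid cells are flat, smooth-muscle-like cells that wrap the seminiferous tubule outside its basement membrane, and their contractions move sperm and fluid along the tubule. They share their contractile proteins with the smooth muscle of blood vessels and with myofibroblasts. They are a known companion of Sertoli cells in primary culture, since both lie against the same basement membrane. In smooth muscle, myosin filaments pull on actin filaments that carry tropomyosin, calponin and caldesmon, and desmin filaments tie the contractile units to the cell's edge. Many of the genes for these proteins are switched on by serum response factor (SRF) with its coactivator myocardin, through a DNA element called the CArG box.

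All 9 genes had high signals on every array. Their log2 signals lay between 12.01 and 13.05, where the highest of any non-control probe set was 13.46, and between 0.149% and 1.99% of the 27596 non-control sets had a higher mean. Probe sets differ in affinity, so this place on the array is no measure of transcript number. No gene differed by more than 0.071 on the log2 scale between any 2 of the 4 arrays, which is 5.01% of linear signal. The contractile genes thus read nearly alike in NP, MBP, NP+MBP and control cultures. These are bulk samples, in which fewer cells of a type and less RNA per cell cannot be told apart. Signals are given below to 2 decimals, and differences were taken before rounding.

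**Figure D1:**
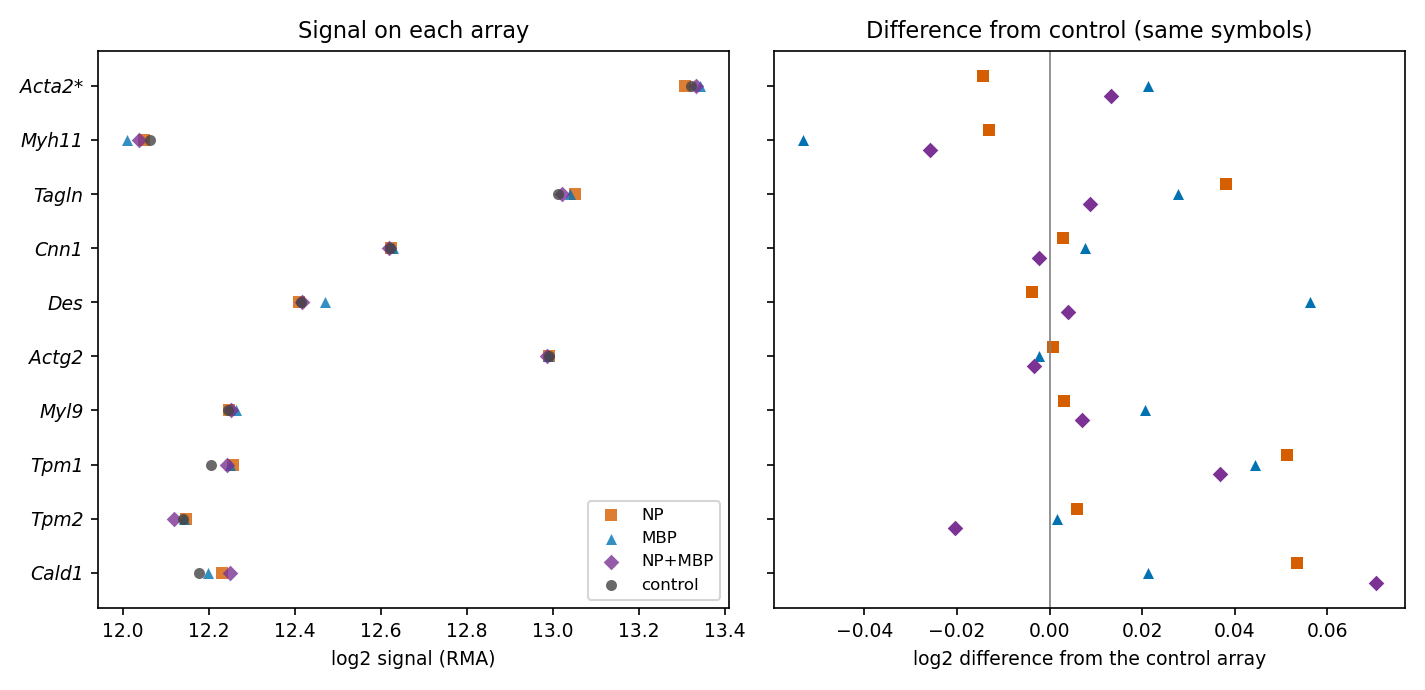
Log2 RMA signal (left) and log2 difference from the control array (right) for the 9 contractile genes found by symbol and the Acta2 probe set named by its description (asterisk), with 1 point for each array or difference and the same symbols in both panels. The 9 genes lie between 12.01 and 13.05 on every array, and each difference is within 0.071 of 0. Under median centring of the arrays most of the small positive differences turn negative.

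Myosin came first among the motor proteins. Myh11, the smooth muscle myosin heavy chain and the most restricted marker of the set (RGSC3.4 chr10:666701-776535, plus strand), had log2 signals of 12.05 in NP, 12.01 in MBP, 12.04 in NP+MBP and 12.06 in control. The control array was the highest and the MBP array the lowest, 0.053 below it. Myl9, the regulatory light chain whose phosphorylation starts contraction (chr3:147177777-147193863, plus strand), had 12.25 in NP, 12.26 in MBP, 12.25 in NP+MBP and 12.24 in control. Its 4 values spanned 0.021, and 2.22% of all probe sets above the signal filter described below had a narrower span.

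Of the actins, Actg2 encodes the enteric smooth muscle form (chr4:117732482-117757013, minus strand). It had a log2 signal of 12.99 on the NP, MBP, NP+MBP and control arrays alike, with a span of 0.0040. That was the narrowest span of the 9 genes, and 0.06% of the kept probe sets had a narrower one. Acta2 encodes alpha smooth muscle actin, the protein by which myoid cells are usually stained. Its probe set without a symbol had 13.31 in NP, 13.34 in MBP, 13.33 in NP+MBP and 13.32 in control, and 3 probe sets had a higher mean. NP was the lowest array and MBP the highest, 0.036 apart. The annotation gives this set no genome position. A different row carries the symbols Actc1 and Acta2 together and lies at chr3:99901022-99906558, minus strand, the locus of the cardiac actin gene Actc1. It had 8.37 in NP, 8.49 in MBP, 8.44 in NP+MBP and 8.45 in control.

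The promoters of the 2 actin genes that share that row are shown because actin promoters are the classic home of the CArG box. Each window runs from 250 bases before to 50 bases after the start of the gene, from RefSeq on assembly GRCr8, 5′ to 3′ on the gene's strand. Capitals mark the matches to a CArG-like box, which is a CC pair, 6 bases of which at most 1 is C or G, and a GG pair. The motif reads the same way on both strands.
Acta2, chr1:241172454-241172753, minus strand: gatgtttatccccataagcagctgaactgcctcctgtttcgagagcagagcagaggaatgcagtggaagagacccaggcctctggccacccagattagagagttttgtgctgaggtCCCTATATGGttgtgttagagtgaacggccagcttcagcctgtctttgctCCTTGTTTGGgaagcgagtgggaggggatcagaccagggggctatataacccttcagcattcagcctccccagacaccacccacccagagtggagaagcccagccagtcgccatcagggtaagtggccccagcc
Actc1, chr3:121271778-121272077, minus strand: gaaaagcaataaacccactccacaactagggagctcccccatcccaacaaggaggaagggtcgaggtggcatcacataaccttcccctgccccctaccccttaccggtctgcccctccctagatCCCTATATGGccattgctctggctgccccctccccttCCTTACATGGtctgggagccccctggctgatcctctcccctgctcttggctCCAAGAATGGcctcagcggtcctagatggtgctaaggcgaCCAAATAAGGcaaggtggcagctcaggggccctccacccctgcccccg
The Acta2 window holds 2 such boxes, which begin 134 and 84 bases before the start. The Actc1 window holds 4, of which 1 is a CArG box with no C or G among its 6 central bases. The first of the 4 begins 126 bases before the start. The CArG box is the last of them and begins 2 bases after the start. Among all 33469 windows of this length, 9.42% hold a CArG-like box, 1.64% a CArG box and 0.85% at least 2 CArG-like boxes. Of the 10 contractile genes, 7 had a window (8 windows, since Cald1 has 2 starts), and Acta2 was the 1 gene of these with a match. Myh11, Tagln and Myl9 had none in the table. A match is a description of letters, and a window without one says only that they are not in this stretch.

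Tropomyosins lie along the actin filament and govern where myosin can bind, and non-muscle cells also make shorter forms of both. Tpm1 (chr8:71331304-71358063, minus strand) had log2 signals of 12.26 in NP, 12.25 in MBP, 12.24 in NP+MBP and 12.21 in control. All 3 treated arrays were above the control array, by 0.051, 0.044 and 0.037. Tpm2 (chr5:59994101-60003261, minus strand) had 12.15 in NP, 12.14 in MBP, 12.12 in NP+MBP and 12.14 in control. Here NP+MBP was the lowest array, 0.020 below control, and the other arrays lay within 0.0059 of each other. A second row with the symbol Tpm1 is annotated at chrM:2654-2728, plus strand, and described as a mitochondrial transfer RNA for leucine. It was not used for Tpm1. Its signals were 11.44 in NP, 11.37 in MBP, 11.44 in NP+MBP and 11.13 in control.

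Calponin, caldesmon and transgelin bind actin and restrain or shape contraction. Cnn1, calponin of smooth muscle (chr8:21210527-21221024, plus strand), had log2 signals of 12.62 in NP, 12.63 in MBP, 12.62 in NP+MBP and 12.62 in control, a span of 0.010. Cald1, caldesmon (chr4:62062872-62156855, plus strand), had 12.23 in NP, 12.20 in MBP, 12.25 in NP+MBP and 12.18 in control. Its span of 0.071 was the widest of the 9 genes, with NP+MBP highest and control lowest. Tagln, transgelin or SM22 (chr8:48902208-48907693, minus strand), had 13.05 in NP, 13.04 in MBP, 13.02 in NP+MBP and 13.01 in control. Each treated array stood above control, NP by 0.038 and NP+MBP by 0.0087. Des, the muscle intermediate filament desmin (chr9:74637786-74645503, plus strand), had 12.41 in NP, 12.47 in MBP, 12.42 in NP+MBP and 12.41 in control. The MBP array alone stood apart, 0.056 above control, and NP+MBP was 0.0039 above it.

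The comparisons below set these differences against all probe sets whose mean log2 signal reached 7.50, the median of the non-control sets, which kept 13798. In NP minus control, 7 of the 9 genes were above 0, and 62.4% of all kept sets were. Their median was 0.0031, against 0.022 ± 0.11 over all kept sets (median and SD over sets). None of the 9 reached 1.2-fold, a step of 0.263 on the log2 scale used as a description, as 3.04% of all kept sets did. In MBP minus control, 7 of 9 were above 0, against 64.1% of all sets, with a median of 0.021 against 0.026 ± 0.10. None reached 1.2-fold, against 2.96%. In NP+MBP minus control, 5 of 9 were above 0, against 64.9%, with a median of 0.0039 against 0.033 ± 0.13, and none reached 1.2-fold, against 5.6%. Among the 591 kept sets with a mean signal of 12 or more, the shares above 0 were 70.1%, 70.9% and 73.6% in the same order. These 3 comparisons share the control array. With each array centred on its median, 3 of 9 genes were above 0 in the NP comparison, 1 in that of MBP and 1 in that of the mixture, so the direction of these small differences depends on the scaling.

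The arrays with both compounds were also set against those with 1. In NP+MBP minus MBP, 2 of 9 genes were above 0 (Myh11 and Cald1), against 55.7% of all kept sets, with a median of -0.010 against 0.0073 ± 0.064. With quantile normalization 4 of 9 were above 0. In NP+MBP minus NP, 3 of 9 were above 0 (Des, Myl9 and Cald1), against 56.4%, with a median of -0.0053 against 0.0090 ± 0.078. With median centring none of the 9 was. Among the 591 kept sets with a mean signal of 12 or more, 57.4% were above 0 in NP+MBP minus MBP and 49.4% in NP+MBP minus NP. No gene reached 1.2-fold in either comparison, as 0.297% and 0.833% of all kept sets did. The highest of the 4 arrays was NP for 4 genes, MBP for 3, NP+MBP for 1 and control for 1. The lowest was NP for 1, MBP for 1, NP+MBP for 3 and control for 4.

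**Figure D2:**
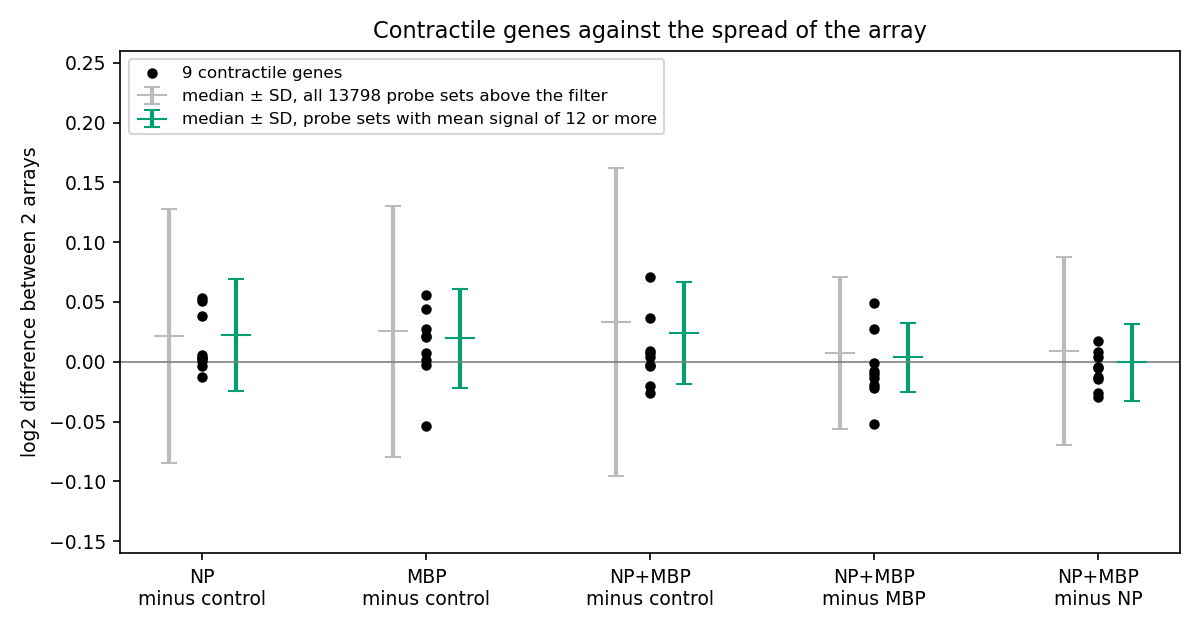
Log2 differences of the 9 contractile genes (points) in 5 comparisons of 2 arrays, with the median ± SD over all 13798 kept probe sets (grey) and over the 591 with a mean signal of 12 or more (green). All points lie between -0.053 and 0.071, inside the grey bars. Some points of Myh11, Des, Cald1 and Tpm2 lie outside the narrower green bars. With median centring most points in the first 3 columns fall below 0.

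Since 2 arrays carried each compound and 2 did not, a compound's difference could be taken from 2 array pairs that did not overlap, and is given as the mean ± SD of the pairs. Any true interaction between NP and MBP enters this SD. For NP the pairs took NP against control and NP+MBP against MBP, and the means of the 9 genes ran from -0.028 ± 0.034 for Des to 0.051 ± 0.0029 for Cald1, with a median of -0.0001. Cald1 was the 1 gene above 0 in both NP pairs, as 39.7% of all kept sets were. Des was the 1 gene below 0 in both NP pairs, as 21.5% of all kept sets were. For MBP they took MBP against control and NP+MBP against NP, and the means ran from -0.033 ± 0.029 for Myh11 to 0.032 ± 0.034 for Des, with a median of 0.0012. Des, Myl9 and Cald1 were above 0 in both MBP pairs, as 42.1% of all sets were. Myh11 and Actg2 were below 0 in both, as 21.5% were. These signs depend on the scaling. With median centring none of the 9 genes was above 0 in NP+MBP minus NP, and so none was in both MBP pairs. Des then had MBP pairs of opposite sign, and the others were below 0 in both. The Acta2 set gave -0.011 ± 0.0045 for NP and 0.024 ± 0.0045 for MBP.

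An additive model with a term for each compound was fitted to all kept sets with limma, with 1 residual degree of freedom. At a Benjamini-Hochberg adjusted p under 0.05 it called 0.0% of sets for NP and 0.0% for MBP, and none of the 9 genes. Without adjustment, p was under 0.05 in 11.8% of sets for NP and 15.3% for MBP, and in none of the 9 genes for either. Cald1 had the lowest limma adjusted p of the 9 for NP (0.555, a difference of 0.051, SE 0.031) and Myh11 for MBP (0.666, a difference of -0.033, SE 0.032). The 95% intervals of the 9 genes reached from -0.12 to 0.13 for NP and from -0.12 to 0.12 for MBP. The p-values, SEs and intervals rest in part on a variance prior shared by sets of all signals. Dimmer sets had a wider range over the arrays, as given below. The shares over all sets are therefore not a like comparison for the 9 bright genes. The absence of calls does not show that the groups were alike, since no set of any size of difference was called. An exact permutation test of 2 arrays against 2 cannot go below p = 0.333 here.

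The narrow spread of the 9 genes was shared by other probe sets as bright. The range over the 4 arrays had a median of 0.038 for the 9 genes, 0.0997 for all kept sets and 0.049 for the 591 kept sets with a mean signal of 12 or more. It was smaller at higher signal, with medians of 0.158 for sets between 7.50 and 8, 0.122 between 8 and 9, 0.099 between 9 and 10, 0.075 between 10 and 11, and 0.060 between 11 and 12. In the brightest bin 0 of 591 sets reached 1.2-fold in any of the 5 comparisons, against 360 of 2078 in the dimmest. The 0 of 9 counts above therefore match what all sets of that signal gave. Whether probes this bright were near the top of their range was not tested.

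**Figure D3:**
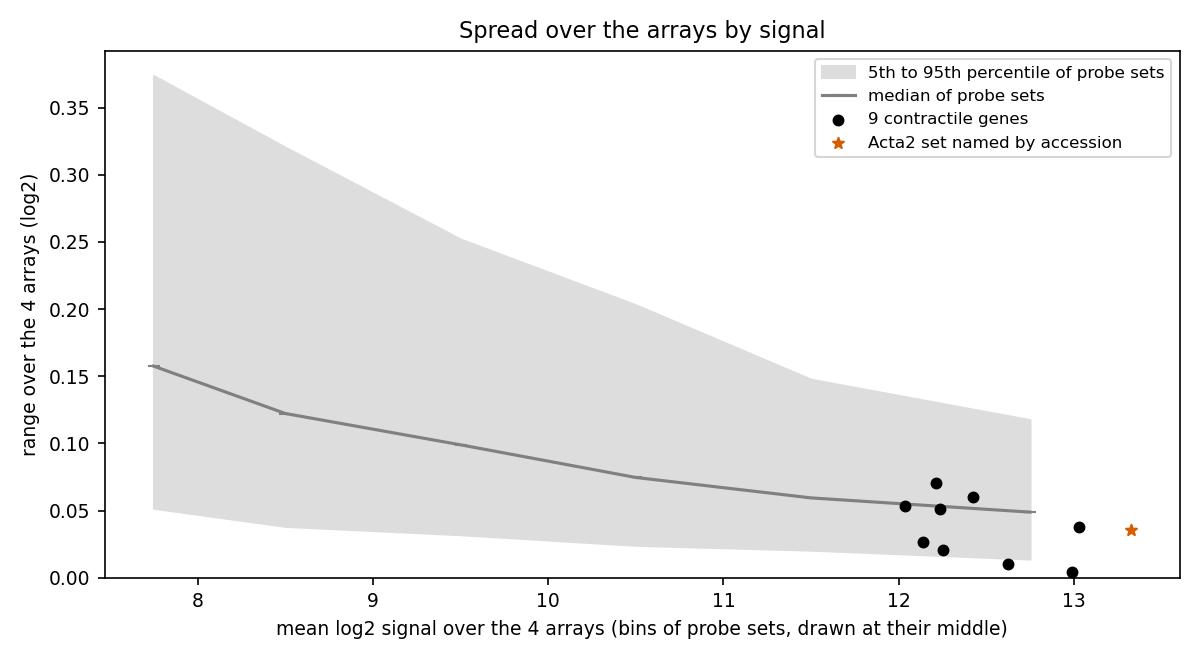
Range of log2 signal over the 4 arrays against mean log2 signal, for the 9 contractile genes (black) and the Acta2 set (star), with the median (line) and the 5th to 95th percentile (shading) of kept probe sets in 6 bins of signal. The median range is 0.158 in the dimmest bin and 0.049 in the brightest, where the contractile genes lie.

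Regulators and partners of these genes were read from lists, as counts and values. Of 17 smooth muscle regulators, 11 had a row above the filter, and limma called none for either compound. The median MBP difference over the 11 was -0.018, beside 0.018 over all kept sets, and 5 of 11 were above 0, beside 63.2% of all kept sets. Myocd, the myocardin gene, had log2 signals of 10.10 in NP, 9.91 in MBP, 9.90 in NP+MBP and 10.07 in control. Both arrays with MBP were below both without it, and the MBP difference was -0.18 ± 0.030 (SD, n = 2 pairs, limma adjusted p = 0.236). Srf, its DNA-binding partner, had 10.61 in NP, 10.64 in MBP, 10.60 in NP+MBP and 10.67 in control, with the control array highest. Tgfbr2, a receptor subunit for TGF-beta, was the next lowest under MBP at -0.094 ± 0.042 (limma adjusted p = 0.321). Its ligand gene Tgfb1 was highest, at 0.068 ± 0.039 (0.413), and Gata6, a transcription factor of smooth muscle, was next at 0.041 ± 0.013 (0.567), from signals below the antigenomic background described further on.

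The contraction machinery outside the 10 genes had 46 symbols, of which 38 had a row above the filter, and limma called none. Its median MBP difference was 0.0063, with 24 of 38 above 0, a share close to the 63.2% of all kept sets. Mylk, the kinase that phosphorylates the regulatory light chain, had 11.28 in NP, 11.28 in MBP, 11.28 in NP+MBP and 11.27 in control. Smtn, a marker of contractile smooth muscle, had an MBP difference of -0.098 ± 0.0085 (limma adjusted p = 0.290), and Pgm5, a protein of muscle adhesion sites, of -0.106 ± 0.037 (0.290). Itga7, the laminin-binding integrin subunit of muscle, had log2 signals of 7.64 in NP, 8.11 in MBP, 8.01 in NP+MBP and 7.70 in control. Both arrays with MBP were above both without, by 0.39 ± 0.031 (limma adjusted p = 0.104), from signals below the antigenomic background on every array. Gucy1a3, a subunit of the nitric oxide receptor, differed by 0.21 ± 0.039 (0.229), and its signals of 9.23 in NP and 9.22 in control were also below that background. Split by signal, the 13 machinery genes with a mean of 12 or more had MBP differences between -0.059 and 0.039, and the 25 dimmer ones between -0.106 and 0.39. Among other actins and tropomyosins, Actb, the cytoplasmic beta actin, had 13.32 in NP, 13.30 in MBP, 13.32 in NP+MBP and 13.35 in control. Acta1, the skeletal muscle actin, had an MBP difference of -0.145 ± 0.033 (limma adjusted p = 0.254). Tpm4 had 0.0084 ± 0.080 (0.942). Tpm3 had 0.0035 ± 0.0014 (0.968), from a probe set that the annotation marks as open to cross-hybridization.

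Markers of other cells in a testis culture were set against the 95th percentile of 45 antigenomic control sets, which lay between 9.22 and 9.49 on the 4 arrays. All 9 contractile genes exceeded it on every array, as 23.2% of the 17582 genes with a row did. So did 14 of 14 stromal genes with a row, 2 of 7 pericyte genes, 0 of 5 endothelial genes, 1 of 6 Leydig genes, 0 of 7 macrophage genes, 1 of 7 germ cell genes and 2 of 20 genes of striated muscle. Of 13 Sertoli cell genes with a row, 6 did, among them Sox9, Wt1, Clu, Cldn11 and Fshr. Their MBP differences were not of one sign. Sox9, Wt1 and Clu, with mean signals of 10.62, 9.73 and 11.48, had 0.032, 0.124 and 0.090, while Fshr, whose probe set is marked as open to cross-hybridization, had -0.134 ± 0.168 (limma adjusted p = 0.411). Cldn11, a tight-junction claudin of Sertoli cells, had 10.02 in NP, 9.37 in MBP, 9.46 in NP+MBP and 10.04 in control, an MBP difference of -0.62 ± 0.073 (limma adjusted p = 0.081). Amh, the anti-Müllerian hormone gene, was below the signal filter at 7.45 in NP, 7.34 in MBP, 7.27 in NP+MBP and 7.43 in control. The 2 pericyte genes above the antigenomic level were Mcam and Pdgfrb, with mean signals of 11.05 and 11.24. The pericyte gene with the lowest mean, Rgs5, had 7.87 in NP, 7.68 in MBP, 7.68 in NP+MBP and 7.74 in control, below that level. Cdh5, the adhesion protein of endothelium, stayed between 8.55 and 8.57, also below it. The log2 of the summed linear signal of the 9 genes was 15.66 in NP, 15.66 in MBP, 15.65 in NP+MBP and 15.64 in control. For the stromal list it was 15.41, 15.34, 15.35 and 15.40 in the same groups, and for the Sertoli list 13.79, 13.74, 13.72 and 13.76. From which of these cells the contractile signal came was not tested.

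Stromal genes, made by the fibroblast-like cells around tubules and vessels, are set beside the contractile genes for MBP. Of 14 stromal genes, 2 had an MBP difference above 0, beside 63.2% of all kept sets, with a median of -0.104 beside 0.018, and limma called none. Dpt, the matrix protein dermatopontin, had -0.52 ± 0.024 (limma adjusted p = 0.081) and Cd34, a surface glycoprotein of stromal progenitors, -0.44 ± 0.087 (0.122). The Sertoli gene Cldn11, outside the stromal list, had -0.62 ± 0.073 on the same arrays. Whether its difference is related to the stromal ones was not tested. Pdgfra and Nr2f2 were the highest 2, at 0.0001 ± 0.065 and 0.016 ± 0.031. The 4 stromal genes with a mean of 12 or more (Dcn, Col1a1, Col1a2 and Fn1, named after their values were seen) lay between -0.0094 and -0.0018, as near to 0 as the contractile genes. The 10 dimmer ones lay between -0.52 and 0.016. No test of the difference between the 2 lists was made, and signal differed between them.

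**Figure D4:**
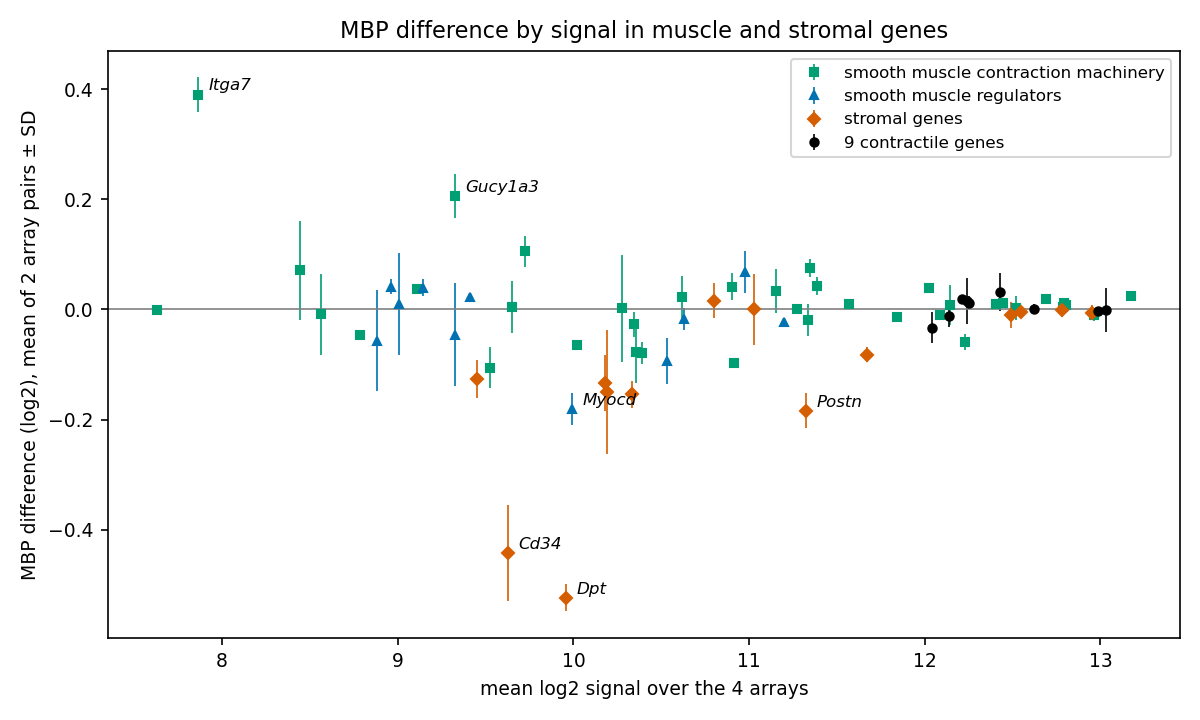
MBP difference (log2, mean of 2 array pairs ± SD) against mean log2 signal over the 4 arrays, for the 9 contractile genes (black), other contraction machinery (green), regulators (blue) and stromal genes (orange). The contractile genes lie between -0.033 and 0.032 at signals over 12, and the lowest and highest differences shown, Dpt at -0.52 and Itga7 at 0.39, are at signals under 10.

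Striated muscle genes were mostly under the filter, with 5 of 20 above it. Myoz2, which binds calcineurin at the Z-disc of striated muscle, had log2 signals of 7.19 in NP, 7.87 in MBP, 8.07 in NP+MBP and 7.27 in control, an MBP difference of 0.74 ± 0.20 (limma adjusted p = 0.144). Both arrays with MBP were the higher ones, and all 4 values were below the antigenomic level. Tnnc1, a troponin of slow and cardiac muscle, had -0.129 ± 0.029 (0.268), and Ckm, muscle creatine kinase, -0.081 ± 0.087 (0.440) from signals below that level.

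The miRNA array gave a separate readout of smooth muscle. miR-143 and miR-145 come from neighbouring genes and, in mice, favour the contractile state of vascular smooth muscle. Their mature sequences are shown because they are the miRNAs best known for smooth muscle, from RefSeq on GRCr8, with the seed (bases 2 to 8) in capitals. They do not share a seed.
rno-miR-143-3p, chr18:57371373-57371394, minus strand: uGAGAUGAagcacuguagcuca
rno-miR-145-5p, chr18:57370033-57370055, minus strand: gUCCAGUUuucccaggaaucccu
The array's own names give no arm for either, and the arm that usually dominates is printed. On a log scale taken as log2, miR-143 had 13.38 in NP, 13.43 in MBP, 13.33 in NP+MBP and 13.40 in control. miR-145 had 13.89 in NP, 13.94 in MBP, 13.94 in NP+MBP and 13.90 in control. Their ranges over the arrays, 0.107 and 0.056, were below the median of 0.255 for the 52 miRNAs with a mean of 10 or more. The strand labelled miR-145-star had 3.18 in NP, 4.32 in MBP, 3.39 in NP+MBP and 2.99 in control, with the MBP array highest.

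Of 18 rows for muscle and stromal miRNAs, 12 were above the median of the 680 mature rat rows, 1.35. The skeletal and cardiac muscle miRNAs miR-1 and miR-206 were below it, with means of -0.063 and 0.94. miR-133a, of the same muscles, had 0.72 in NP, 3.13 in MBP, 2.42 in NP+MBP and 2.64 in control, a range of 2.41 over the arrays at low signal. miR-21 and miR-214 are both abundant in fibroblasts. miR-21 had 9.92 in NP, 10.40 in MBP, 10.22 in NP+MBP and 10.10 in control, with the MBP array highest. miR-214 had 12.20 in NP, 11.64 in MBP, 12.10 in NP+MBP and 12.11 in control, with the MBP array lowest. miR-199a-3p had 12.26 in NP, 12.68 in MBP, 12.48 in NP+MBP and 12.49 in control. Its other arm, miR-199a-5p, had 11.34 in NP, 11.48 in MBP, 11.41 in NP+MBP and 11.35 in control. The ranges of miR-21, miR-214 and miR-199a-3p (0.48, 0.56 and 0.42) were above 0.255, the median for miRNAs with a mean of 10 or more. The range of miR-199a-5p, 0.141, was below that median, as were those of miR-143 and miR-145. None of these differences has a test.

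Genes with a pattern over the 4 arrays most like that of a contractile gene were named by Pearson's r, among genes with at least that gene's range. For the Acta2 set these were Zfp706, Lrrc32, P2ry2, Tmcc1 and Eci2. For Myh11 they were Tmed1, Pde4a, Tmem151a, Il6st and Psd3, and for Cnn1 RGD1565744, Map2k1, RGD1310427, LOC100362431 and Fstl3. All 15 r values were 0.998 or more. They rest on 4 arrays that every gene shares, and r was 0.99 or more in 42 of 9138 genes compared for Acta2, 27 of 7974 for Myh11 and 23 of 9975 for Cnn1. No other contractile gene was among them, but the range rule had kept several out of the comparison. For Myh11, with a range of 0.0534, only Des (0.0601) and Cald1 (0.0705) of the others found by symbol could enter. Cnn1, Actg2, Myl9 and Tpm2, at 0.0102, 0.004, 0.0206 and 0.0263, were too narrow for the Acta2 set (0.0356). For Cnn1 only Actg2 was too narrow. Whether the excluded genes shared a pattern was not tested.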

How the data were processed

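Per the file headers, the gene-level values that the authors deposited are log2 signals from RMA. MAS5 is what the submitters' processing notes name instead, and the headers were followed. A second deposited table held the same values (0 cells differing by more than 1e-09). The authors' miRNA values were deposited on an unnamed log scale and taken as log2 from their range, and their normalization is not given in the sources used here. Gene-level and miRNA values were never set against each other. Groups came from the sample titles, 1 array per group and array type, and with 1 array per group precision is limited by how few arrays there are.

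Of 27596 non-control probe sets, 13798 at or above the median signal, 7.50, were kept. For the additive model, limma 3.58.1 (lmFit, then eBayes) was run under R 4.3.3, with Benjamini-Hochberg adjustment over all kept sets, and was tested on simulated data. Other computations used Python 3.11.15 with numpy 2.4.6 and pandas 2.3.3, and plots matplotlib 3.10.9. The 10 genes, the lists and the tests were chosen with earlier results of these data known. The rule named the 10 genes, the 2 highest and 2 lowest genes of each list by MBP difference, a few fixed genes and miRNAs, and 5 genes most alike in pattern to Acta2, Myh11 and Cnn1. Not every gene it takes is printed. Positions are those of the array annotation, RGSC3.4, and are not mixed with the GRCr8 positions of RefSeq sequences. Alternatives were other scalings, other rows for a gene, other filters and fold thresholds, the other deposited table, and a variance prior that follows signal. The Acta2 set and the set without Tpm1 and Tpm2 were added after seeing the data.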

Additional observations from a re-analysis of the deposited data

Results flagged for a closer look

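For several contractile genes a compound's difference had one sign without the other compound and the opposite sign with it. These differences of differences were not tested, since each rests on 4 single arrays. The change on adding the other compound is by arithmetic the same number for NP and for MBP, and is given in brackets. The sign differed for both compounds in Tagln (-0.057), Cnn1 (-0.013), Tpm1 (-0.059) and Tpm2 (-0.028). For NP alone the sign also differed in Myh11 (0.041), Actg2 (-0.0016) and Myl9 (-0.017). The signs depend on the scaling. With median centring the signs were opposite in 3 genes for NP (Myh11, Tagln and Tpm1) and in 1 for MBP (Des), where the deposited values gave 7 and 4. Cyclic loess gave 3 for NP and 3 for MBP, and quantile normalization 5 and 5. Departures from additivity had an SD of 0.101 over all kept probe sets and 0.055 over those with a mean signal of 12 or more, and the largest in size among the 9 genes was 0.059.

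The second row with the symbol Tpm1, described as a mitochondrial transfer RNA and not used for the gene, was above control by 0.319 in NP and by 0.314 in NP+MBP. In MBP it was above control by 0.240, and NP+MBP minus NP was -0.0048. All 3 treated arrays exceeded the control array, which the 3 differences share.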

How the results depend on the processing

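Of 152 results recomputed under alternatives, 142 were labelled as kept within the limits set, and no call of the 9 genes changed. A median counted as kept if it moved by less than 0.0494, so a change of sign could pass. With median centring the median of MBP minus control went from 0.0206 to -0.0255 and counted as kept. A count could also change within a set ratio and be kept. In MBP minus control, genes above 0 went from 7 to 5 of 9 with quantile normalization and counted as kept. Results from the other deposited table could not move, since its values were the same. Counts of 0 at 1.2-fold could not rise under the stricter fold threshold or with Tpm1 and Tpm2 left out. None of the 9 genes was called by limma or reached 1.2-fold under any alternative run, nor 1.1-fold with the deposited values. Scaling moved the counts of genes above 0. Median centring gave 3 of 9 for NP minus control, 1 for MBP minus control, 1 for NP+MBP minus control and 0 for NP+MBP minus NP, and turned the median of NP+MBP minus control to -0.054. Quantile normalization gave 3 for NP minus control, 2 for NP+MBP minus control and 4 for NP+MBP minus MBP. Cyclic loess gave 3 for NP minus control and 3 for NP+MBP minus control. By construction, centring removed array medians that stood 0.035 below their common level for control and 0.023 above it for NP+MBP.

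Over all probe sets, limma called 0 for NP and 0 for MBP in the fit as reported, 0 and 14 with median centring, 13 and 0 with no filter, 1 and 11 with a filter at the 75th percentile, and 5 and 100 with a prior that follows signal. Leaving out the control array leaves each compound 1 pair of arrays and no test. No paired analysis was possible because each group has 1 array of each type and the titles carry no replicate numbers. Bright probe sets had a narrow range over the arrays, and whether their signals were compressed was not tested.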
